A study of Mus musculus with 64 samples.

Results

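Of 19503 genes measured in the mouse colon, 10 that move ions and water across its epithelium were examined: Slc26a3, Slc9a3, Slc12a2, Scnn1a, Car1, Car2, Car4, Atp12a, Cftr and Aqp8. They were listed by name, for their roles in transport, with earlier results of these data known. All 10 were on the array, each with 1 probeset, and no filter on low values was applied. The colon was sampled in 32 strains of male mice, of which 30 were BXD strains and 2, C57BL/6J and DBA/2J, their parents. Each strain was kept on a high-fat diet (HFD, 60.3% fat, 21.4% carbohydrate and 18.3% protein by energy) or on a chow diet (CD, 18% fat, 58% carbohydrate and 24% protein) for 21 weeks from week 8. The mice were 29 weeks old and had been refed for 4 h when a piece of the proximal colon was taken. RNA of about 5 mice of a strain and diet was pooled for 1 array, giving 64 Clariom S arrays, 32 for HFD and 32 for CD. BXD strains are inbred lines from crosses of C57BL/6J and DBA/2J, so each carries a fixed mixture of the alleles of both. Since every strain had 1 array per diet, p-values of the diet and parental comparisons reflect how strains, or their diet changes, vary. Those of the strain comparison rest on the spread between the 2 arrays of a strain. The variation among mice of a strain was not measured. Values are log2 intensities as deposited, so a difference of 1 is a doubling, and levels are compared between arrays for 1 gene at a time.

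Colonocytes take up salt through exchangers on their luminal surface, and water follows. The sodium-proton exchanger Slc9a3 (NHE3) works beside the chloride-bicarbonate exchanger Slc26a3 (DRA), so that sodium chloride enters while protons and bicarbonate leave. Carbonic anhydrases make these protons and bicarbonate from carbon dioxide and water, Car1 and Car2 in the cytosol and Car4 on the luminal membrane. Scnn1a encodes the alpha subunit of the epithelial sodium channel, which takes up sodium in the distal colon under control of aldosterone, and Atp12a the colonic proton-potassium pump, which recovers potassium. Aqp8 is a water channel of surface colonocytes. Secretion runs the other way: Slc12a2 (NKCC1) loads chloride into cells of the crypt from the blood side, and the chloride channel Cftr releases it into the lumen.

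Some arrays went against their strain labels or stood apart from the rest. At 100 other genes whose level follows the strain, chosen on 27 strains, the HFD and CD arrays of each of those 27 strains were most like each other, with a median r of 0.911, which the choice of genes favours. The pairs labelled C57BL/6J (r 0.0728), DBA/2J (-0.578), BXD87 (0.395), BXD89 (0.269) and BXD90 (0.553) were not. The HFD array labelled C57BL/6J was most like the CD array labelled DBA/2J (r 0.897), and the HFD array labelled BXD89 was most like the CD array labelled BXD90 (r 0.817). The 5 strains are called the strains in doubt, and the diet and strain comparisons of the 10 genes are given with and without those in them. The HFD array of BXD49 and the CD array of BXD81 correlated least with the other arrays of their diet. In 4 arrays (BXD39, BXD49 and BXD69 on HFD, BXD48a on CD) Defa24, a gene of small intestinal Paneth cells, was at 15.77 to 19.57, against at most 9.76 in the other arrays. The mean level of 12 small intestinal markers ran from 8.94 to 15.86 on HFD, with a median of 9.57, and from 8.52 to 13.70 on CD, with a median of 9.26, and it was higher on HFD in 23 of 32 strains. The mean of 10 smooth muscle markers ran from 13.13 to 14.81 on HFD and from 13.29 to 14.80 on CD, and was higher on HFD in 22 of 32 strains. The mean of 13 epithelial markers ran from 14.75 to 15.42 on HFD and from 14.83 to 15.54 on CD, and was lower on HFD in 19 of 32. In tissue samples, fewer cells of a type and less RNA per cell cannot be told apart.

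The upstream sequences of Slc26a3, Car4 and Aqp8 are shown because the levels of these luminal genes were often lower on HFD in the same strains, as the diet comparison shows. They are the 250 bases before the annotated gene start, from RefSeq on build GRCm38.p6, all on the plus strand: chr12:31437969-31438218 for Slc26a3, chr11:84957504-84957753 for Car4 and chr7:123462044-123462293 for Aqp8. Of the 10 genes, 5 had an entry in this table. Capitals mark matches, on either strand, to a site type of the factor HNF1 (GTTAATNAT), the core of sites of the gut factors CDX1 and CDX2 (TTTAT), an HNF4 site type (CAAAGTCCA), a GATA site type (AGATAA) and the TATA box (TATAAA, whose reverse overlaps TTTAT).
Slc26a3: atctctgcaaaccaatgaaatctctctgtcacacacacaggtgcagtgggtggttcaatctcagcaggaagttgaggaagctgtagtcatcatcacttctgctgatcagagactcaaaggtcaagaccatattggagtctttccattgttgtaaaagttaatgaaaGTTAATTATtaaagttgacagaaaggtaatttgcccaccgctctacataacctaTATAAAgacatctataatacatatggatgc
Car4: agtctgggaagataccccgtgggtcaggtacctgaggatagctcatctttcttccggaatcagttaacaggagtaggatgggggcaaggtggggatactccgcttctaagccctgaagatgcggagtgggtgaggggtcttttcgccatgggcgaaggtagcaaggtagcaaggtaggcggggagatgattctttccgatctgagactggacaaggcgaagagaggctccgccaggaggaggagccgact
Aqp8: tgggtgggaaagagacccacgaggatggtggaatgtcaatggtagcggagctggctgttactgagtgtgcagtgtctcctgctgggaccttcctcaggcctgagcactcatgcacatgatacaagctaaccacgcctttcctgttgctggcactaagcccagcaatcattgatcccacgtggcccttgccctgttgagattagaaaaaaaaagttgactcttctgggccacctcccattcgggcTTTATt
Slc26a3 held the HNF1 type of site, which 0.737% of the 32851 upstream windows of this length hold, and a TATA box (12.4% of windows) that overlaps a TTTAT match. Aqp8 held 1 match to TTTAT, which 37.3% of windows hold. Car4 held none of the 5, among them the HNF4 type (0.384% of windows) and the GATA type (9.99%). A match describes the letters only, and the deposited data do not show whether a factor was bound there.

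The first comparison was between diets. By diet alone, none of the 10 genes passed an adjusted p of 0.05 in limma, where 2.18% of all genes did (426 of 19503, with 145 higher and 281 lower on HFD). The HFD mean was lower for 7 of the 10 genes and the median difference over the 10 was -0.24, against 0.00206 over all genes. At an unadjusted p under 0.05 there were 4 genes, Car4, Car2, Slc26a3 and Scnn1a, each lower on HFD, where 7.05% of all genes were lower and 6.51% higher.

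**Figure D1:**
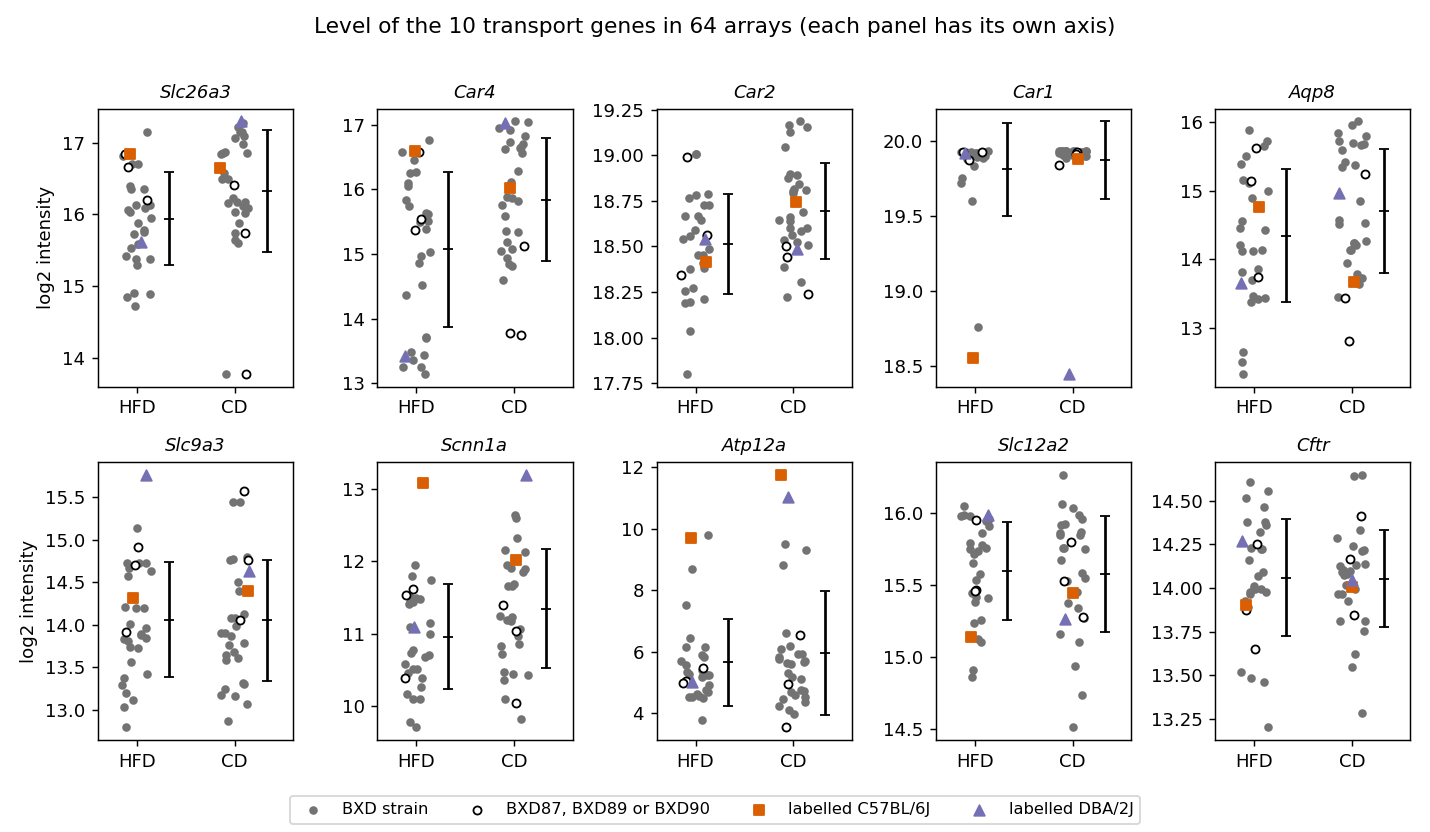
Log2 intensity of each of the 10 genes in the 32 HFD arrays (left) and the 32 CD arrays (right), with the mean and SD as black bars and a separate axis for each gene. The arrays of the 2 strains labelled parental and of BXD87, BXD89 and BXD90 are marked, and Atp12a spans 8.24 on the log2 scale, the widest of the 10.

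Of the partners in the exchange of chloride for bicarbonate, the membrane-bound anhydrase Car4 had the largest difference in means between diets. Car4 ran from 13.15 to 16.76 in HFD arrays with a median of 15.45, and from 13.75 to 17.06 in CD arrays with a median of 15.88. The groups overlapped over most of their range, and 24 of 32 strains were lower on HFD. The mean was 15.07 ± 1.20 on HFD and 15.84 ± 0.95 on CD (SD, n = 32 each), a log2 difference of -0.77 (standard error 0.26, adjusted p = 0.101 in limma). With strain as a replicate block, which compares the 2 arrays of each strain, Car4 fell on HFD (adjusted p = 0.0207, where 3.52% of all genes were called), as it did by diet alone without the strains in doubt (-0.98, adjusted p = 0.0159, where 4.39% were called). The pairs in doubt held both extremes of this difference. It was -3.61 in the pair labelled DBA/2J (13.43 on HFD and 17.03 on CD) and 2.79 in the pair labelled BXD90 (16.57 on HFD and 13.78 on CD), against a median of -0.92 over the 32 pairs. Among the other 27 strains, 23 were lower on HFD, and BXD81 had the largest drop (13.48 on HFD and 16.74 on CD), on a CD array that stood apart. The difference was -0.65 (adjusted p = 0.208) without the 4 arrays rich in Defa24. With the mean of the epithelial markers as a covariate it was -0.67 (adjusted p = 0.136), and with that of the smooth muscle markers -0.72 (0.141).

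The exchanger Slc26a3 ran from 14.73 to 17.14 in HFD arrays with a median of 15.997, and from 13.77 to 17.30 in CD arrays with a median of 16.45. Its mean was 15.94 ± 0.65 on HFD and 16.33 ± 0.85 on CD (SD, n = 32 each), with a log2 difference of -0.39 (standard error 0.18, adjusted p = 0.314 in limma). Of 32 strains 22 were lower on HFD. The lowest levels were in 2 CD arrays, those labelled BXD89 (13.77) and BXD81 (13.78), and the HFD arrays of these strains were at 16.84 and 15.76.

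The cytosolic anhydrase Car2 varied little. It ran from 17.80 to 19.01 in HFD arrays with a median of 18.54, and from 18.22 to 19.19 in CD arrays with a median of 18.65. The mean was 18.51 ± 0.27 on HFD and 18.70 ± 0.26 on CD (SD, n = 32 each), a log2 difference of -0.18 (standard error 0.07, adjusted p = 0.184 in limma). It was lower on HFD in 24 of 32 strains. Car1, the other cytosolic form, lay at the top of the scale. It was within 0.1 of the highest gene of its array in 58 of 64 arrays, so that differences above that level would not be seen. It ran from 18.55 to 19.93 in HFD arrays and from 18.44 to 19.93 in CD arrays, with medians of 19.91 on HFD and 19.92 on CD and a log2 difference of -0.06 (standard error 0.07, adjusted p = 0.798 in limma). The 6 arrays further from the top were CD of the pair labelled DBA/2J (18.44) and HFD of the pair labelled C57BL/6J (18.55), BXD75 (18.76), BXD40 (19.60), BXD79 (19.72) and BXD64 (19.75).

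The water channel Aqp8 ran from 12.33 to 15.89 in HFD arrays with a median of 14.32, and from 12.82 to 16.01 in CD arrays with a median of 14.56. The mean was 14.34 ± 0.97 on HFD and 14.70 ± 0.90 on CD (SD, n = 32 each), a log2 difference of -0.36 (standard error 0.22, adjusted p = 0.505 in limma). Although the difference was small beside the spread, 24 of 32 strains were lower on HFD. The strain differences ran from -2.21 in BXD12 (13.47 on HFD and 15.68 on CD) to 2.80 in the pair labelled BXD89 (15.62 on HFD and 12.82 on CD). With the smooth muscle markers as a covariate the log2 difference of Aqp8 was -0.20 (adjusted p = 0.72), and with the epithelial markers -0.23 (0.625).

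Among the genes of sodium and potassium uptake, Scnn1a had the largest difference in means, and none passed. Slc9a3 ran from 12.79 to 15.76 in HFD arrays and from 12.87 to 15.57 in CD arrays, with medians of 13.93 on HFD and 13.95 on CD and a log2 difference of 0.01 (standard error 0.17, adjusted p = 0.995 in limma). It was lower on HFD in 13 of 32 strains and higher in 19. The sodium channel subunit Scnn1a ran from 9.70 to 13.08 in HFD arrays with a median of 10.89, and from 9.82 to 13.19 in CD arrays with a median of 11.24. Its mean was 10.96 ± 0.73 on HFD and 11.34 ± 0.83 on CD (SD, n = 32 each), a log2 difference of -0.39 (standard error 0.19, adjusted p = 0.334 in limma). It was lower on HFD in 23 of 32 strains. Atp12a, the potassium-recovering pump, ran from 3.77 to 9.80 in HFD arrays with a median of 5.24, and from 3.53 to 11.76 in CD arrays with a median of 5.61. Its mean was 5.65 ± 1.42 on HFD and 5.95 ± 2.01 on CD (SD, n = 32 each), with a log2 difference of -0.30 (standard error 0.41, adjusted p = 0.828 in limma). Without the strains labelled parental this difference was -0.05 (adjusted p = 0.968). Atp12a lay above the median of all genes in 9 of 64 arrays, 4 HFD and 5 CD. The table holds no background level, so how far its low values stand above background is not known.

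The 2 secretory genes were, with Slc9a3, those with the smallest differences in means. Slc12a2 ran from 14.86 to 16.05 in HFD arrays and from 14.51 to 16.26 in CD arrays, with a log2 difference of 0.02 (standard error 0.09, adjusted p = 0.952 in limma). Cftr ran from 13.20 to 14.61 in HFD arrays and from 13.28 to 14.65 in CD arrays, with a log2 difference of 0.01 (standard error 0.08, adjusted p = 0.985). Strains split evenly, with 17 of 32 lower on HFD for Slc12a2 and 18 of 32 for Cftr. A p that misses the threshold does not show equal levels, and the standard errors allow a small difference either way.

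**Figure D2:**
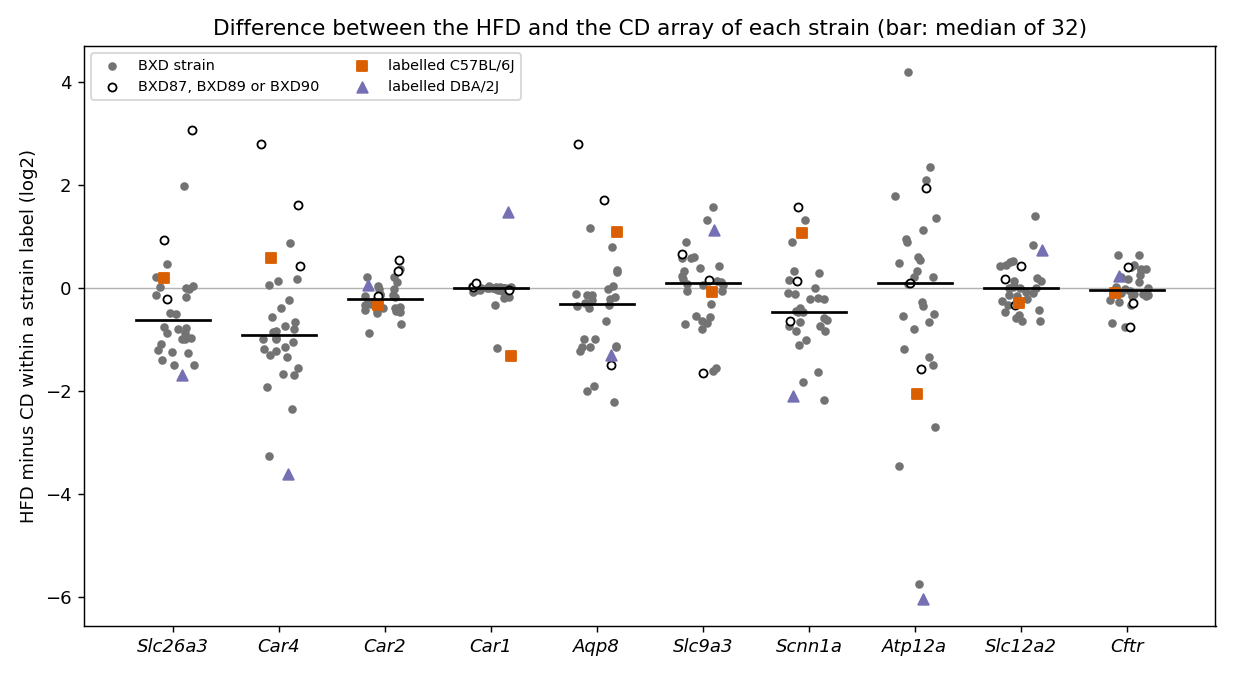
HFD minus CD level on the log2 scale for each strain label and gene, with a black bar at the median of 32 strains. Most strains lie below 0 for Car4 (24 of 32), Car2 (24), Aqp8 (24), Scnn1a (23) and Slc26a3 (22). The pairs in doubt hold the highest values of Slc26a3, Scnn1a, Car1, Car2, Car4 and Aqp8 and the lowest of Slc26a3, Slc9a3, Car1, Car4, Atp12a and Cftr.

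The diet comparison was then run within strains over the 27 strains whose arrays matched, an alternative chosen after the data had been seen. In that fit 5 of the 10 genes fell and none rose, where 6.96% of all genes were called (1358 of 19503) and 3.94% were lower on HFD. Car4 fell by 0.98 (standard error 0.15, adjusted p = 2.59e-05 in limma with strain as a replicate block), Slc26a3 fell by 0.54 (0.14, adjusted p = 0.0103) and Aqp8 fell by 0.53 (0.14, adjusted p = 0.0174). Car2 fell by 0.23 (0.07, adjusted p = 0.0258) and Scnn1a fell by 0.46 (0.13, adjusted p = 0.0291). Those that did not pass were Slc9a3, Slc12a2, Cftr, Car1 and Atp12a, with log2 differences between -0.08 and 0.03. The 100 genes used for matching include none of the 10. They were chosen on these 27 strains, which favours the match of the 27, so it is no independent support for leaving out the others. Leaving out the strains in doubt raised the calls over all genes as well, to 857 by diet alone. The block fit over 27 strains still held the 4 arrays rich in Defa24 and the CD array of BXD81 that stood apart. It was not run without them or with the marker covariates.

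**Figure D3:**
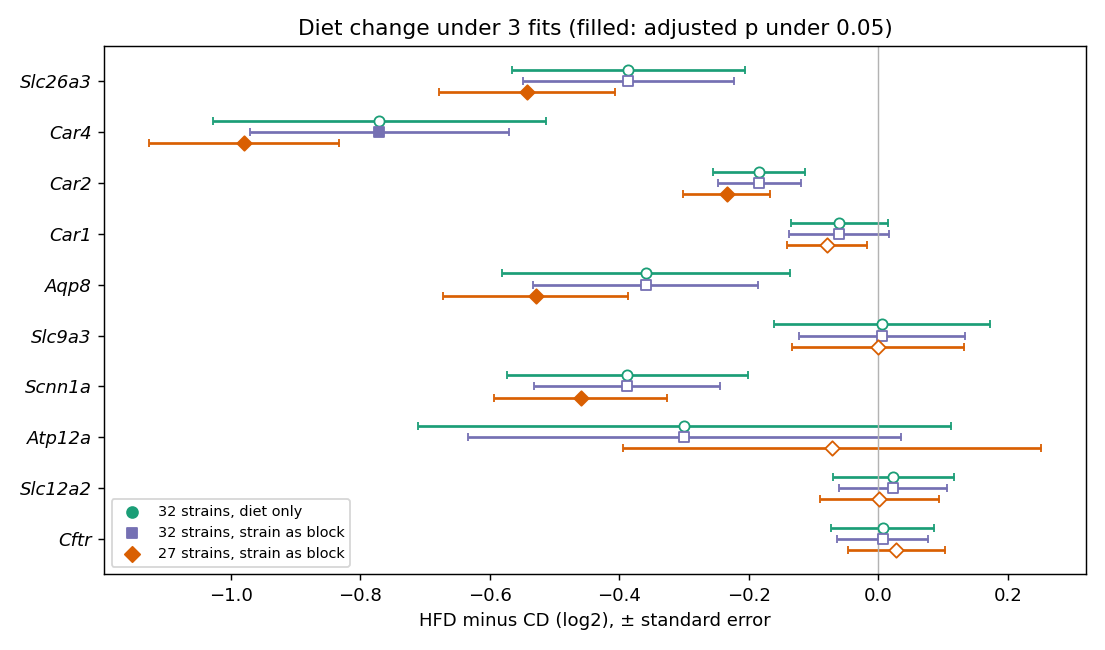
Log2 difference HFD minus CD of each gene with its standard error in 3 limma fits, with filled symbols where the adjusted p was under 0.05. By diet alone none is filled, with strain as a block over 32 strains Car4 is filled, and over 27 strains Car4, Slc26a3, Aqp8, Car2 and Scnn1a are filled.

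Slc26a3, Car4, Car2 and Aqp8 were all lower on HFD in the same 13 of 32 strains, none of them in doubt. They were all higher on HFD in 3 strains, BXD48a and the pairs labelled BXD87 and BXD89. In BXD48a Aqp8 was at 15.11 on HFD and 13.95 on CD, and its CD array is 1 of the 4 rich in Defa24. Singly, Slc26a3 was lower on HFD in 22 of 32 strains and Car4, Car2 and Aqp8 each in 24, so many shared strains would occur even with unrelated genes. The 4 genes were chosen for this count after their values had been seen, so it is a description.

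Other genes of ion and water transport were taken from 6 lists, of which 65 of 72 genes were on the array. By diet alone 4 of the 65 fell on HFD and none rose, with 61 that did not pass, against 1.44% of all genes that fell, and the median difference over the 65 was -0.07. Slc9a3r1 (NHERF1), a scaffold that holds Slc9a3 and Cftr at the luminal membrane, averaged 12.14 ± 0.46 on HFD and 12.82 ± 0.60 on CD (SD, n = 32 each) and fell by 0.68 (standard error 0.13, adjusted p = 0.00101 in limma, lower in 27 of 32 strains). Of 12 potassium channels and pumps 3 fell. The potassium channel gene Kcnk5 fell by 0.46 (adjusted p = 0.0171), its relative Kcnk1 fell by 0.43 (adjusted p = 0.0082), and Atp1b1, the beta subunit of the sodium pump, fell by 0.20 (adjusted p = 0.0396). The cytosolic anhydrase Car13, which did not pass by diet alone (-0.37, adjusted p = 0.167), also fell when strain was a replicate block (adjusted p = 0.0204), and 27 of 32 strains had it lower on HFD. None of the 10 genes of anion exchange passed, nor any of the 11 of chloride secretion or the 10 aquaporins. The smallest p values there were those of the sulphate transporter Slc26a2 (-0.22, adjusted p = 0.118), the guanylin receptor Gucy2c (-0.27, 0.0985) and the water channel Aqp1 (-0.33, 0.255). At an unadjusted p under 0.05, 13 of the 65 were lower and 3 higher, where 7.05% of all genes were lower and 6.51% higher. Without the strains in doubt Slc9a3r1 fell by 0.89, Kcnk5 by 0.62, Kcnk1 by 0.56 and Atp1b1 by 0.21, and each passed by diet alone (adjusted p from 7.03e-07 to 0.0373 in limma).

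The second comparison was between BXD strains, with diet held in the model and the 2 arrays of a strain giving the spread. Of the 10 genes, Car4 (F 2.94, adjusted p = 0.0257 in limma) and Aqp8 (F 2.63, adjusted p = 0.0469) differed between the 30 strains, where 6.22% of all genes did. Scnn1a (adjusted p = 0.0764) and Slc9a3 (0.0882) did not pass, and the other 6 had adjusted p values from 0.278 to 0.983. Both calls depended on the strains and the variance model. Without BXD87, BXD89 and BXD90, Car4 (adjusted p = 0.000148), Aqp8 (0.000747) and Scnn1a (0.0316) passed, where 6.31% of all genes did. When limma's variances were moderated toward a trend and robustly, adjusted p was 0.0895 for Car4 and 0.123 for Aqp8, and without the 4 strains with an array rich in Defa24 it was 0.095 and 0.115.

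Strain means of Car4 ran from 13.98 in BXD12 (13.15 on HFD and 14.82 on CD) and 13.98 in BXD79 (13.37 on HFD and 14.60 on CD) to 16.70 in BXD45 (16.59 on HFD and 16.82 on CD) and 16.73 in BXD48a (16.76 on HFD and 16.70 on CD). Those of Aqp8 ran from 13.12 in BXD81 (12.51 on HFD and 13.73 on CD) to 15.95 in BXD32 (15.89 on HFD and 16.01 on CD). Neighbours in the order of strain means differed by at most 0.28 for Car4 and 0.33 for Aqp8, less than the residual SDs of 0.82 and 0.76. Slc26a3, with no strain effect called, had no gap above its residual SD either (largest 0.39, SD 0.71). The gaps thus cannot tell a gradient from groups of strains that overlap. Levels on HFD and on CD correlated over the 30 strains by r = 0.42 for Car4 (rho 0.53), 0.37 for Aqp8 (rho 0.41) and 0.35 for Scnn1a (rho 0.37), and by 0.05 for Atp12a (rho 0.07) and 0.11 for Slc26a3 (rho 0.24), given as a description.

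**Figure D4:**
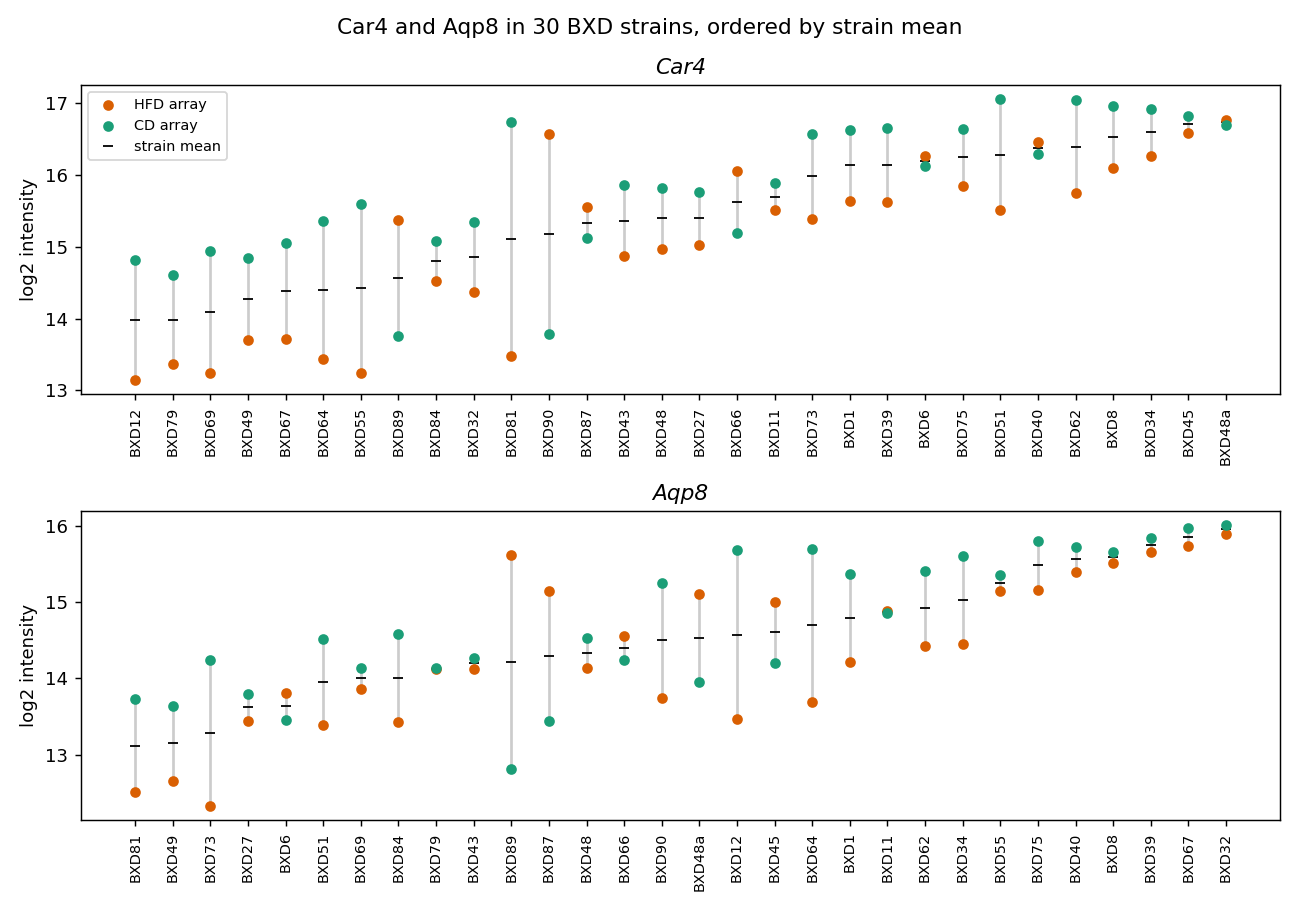
Log2 intensity of Car4 (top) and Aqp8 (bottom) in the HFD and CD arrays of the 30 BXD strains, ordered by the strain mean. Strain means run from 13.98 to 16.73 for Car4 and from 13.12 to 15.95 for Aqp8, and the HFD array lies below the CD array in most strains, with BXD90 and BXD89 among the exceptions for Car4.

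Of the genes in the 6 lists, 8 of 65 differed between strains, where 6.22% of all genes did. They were the water channel Aqp11 (adjusted p = 0.000115), the goblet cell product Clca1 (0.000387), the carbonic anhydrases Car13 (0.00539) and Car9 (0.0113), the hormone Guca2b (0.00769), the kinase Sgk1 (0.0166), Hsd11b2, which shields the aldosterone receptor from glucocorticoids (0.0433), and Fxyd4, a partner of the sodium pump (0.0469), all in limma.

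The genes most like Car4 over the 60 BXD arrays, after removal of the diet means, were its neighbours on chromosome 11. They were Gdpd1 (r 0.597), Dhrs11 (0.586) and Dhx40 (0.583), which lie 16, 5 and 14 array genes from it. Of the 20 genes with the largest correlation of either sign, 12 lay within 50 array genes of Car4, a window that holds 0.513% of all genes, and 5 of these 12 ran the other way. The strongest was Lpo, lactoperoxidase, at r -0.699, whose own level differed strongly between strains (F 49.9, adjusted p = 5.26e-18 in limma). For Scnn1a, the most alike was the adjacent gene on chromosome 6, Ltbr (r 0.722), a receptor of the tumour necrosis factor family, then Mfsd4a (0.676) and Fam117b (0.665). The other 8 had none of their 20 in such a window. Atp12a was most like the transglutaminase Tgm3 (0.842), the homeobox gene Hoxb13 (0.758) and Sval1 (0.688). Slc26a3 was most like Ahcyl2 (0.689), Aqp4 (0.673) and Thbs4 (0.652), and Aqp8 most like Aadac (0.67), Tomm22 (0.662) and Prelid3b (0.659). Prelid3b was also second for Car2 (0.63), between Fam162a (0.636) and Ethe1 (0.61). Slc12a2 was most like Fryl (0.757), Kmt2c (0.71) and Atrnl1 (0.694), Car1 most like B4galnt2 (0.666), Ces1g (0.598) and Tgfbr3l (0.59), Cftr most like Kif14 (0.558), Bcl2 (0.532) and Slc35a3 (0.525), and Slc9a3 most like Amd2 (0.523), Prkcd (0.517) and Ino80e (0.504). These are correlations over arrays that share strain and tissue makeup, and they carry no test. Without BXD87, BXD89 and BXD90 (54 arrays, an alternative chosen after the data had been seen, for the correlations too), 18 of the 30 genes named here stayed among the 3 most like their gene and all 30 among its 20, and 9 of the 20 for Car4 lay in its window.

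Over the 30 BXD strain means, 1 of the 45 pairs of the 10 genes correlated past an adjusted p of 0.05 by Pearson's r and 2 by Spearman's rho. Past both was Slc26a3 with Cftr, with Pearson's r of 0.57 (permutation p = 0.00083, adjusted p = 0.0374), Spearman's rho of 0.60 (p = 0.0007, adjusted p = 0.0191) and r of 0.51 without the 2 strains farthest from the median of Slc26a3. In HFD arrays alone this pair had r = 0.25 (permutation p = 0.175, adjusted p = 0.50), and in CD arrays alone r = 0.44 (permutation p = 0.0157, adjusted p = 0.132). Without BXD87, BXD89 and BXD90 its r was 0.60 (permutation p = 0.00098, adjusted p = 0.0441), and without the 4 strains with an array rich in Defa24 it was 0.57 (permutation p = 0.00198, adjusted p = 0.0891, n = 26 strains). Past the threshold by rho alone was Car2 with Aqp8, with r = 0.53 (permutation p = 0.00242, adjusted p = 0.0544), rho of 0.58 (p = 0.00085, adjusted p = 0.0191) and r of 0.47 without 2 strains. Slc26a3 and Aqp8 had r = 0.65 in CD arrays alone (permutation p = 2e-05, adjusted p = 0.0009), rho of 0.66 (p = 7e-05, adjusted p = 0.00315) and r of 0.57 without 2 strains, while in HFD arrays alone r was 0.29 (permutation p = 0.129, adjusted p = 0.50) and over strain means r was 0.43 (permutation p = 0.0175, adjusted p = 0.197). Against the 8 marker lists, 1 of 80 correlations passed by r and 2 by rho. Past both was Slc26a3 with the anterior Hox genes, which are more active toward the head end of the body. Its r was -0.67 (permutation p = 4e-05, adjusted p = 0.0032), rho was -0.72 (p = 3e-05, adjusted p = 0.0024) and r was -0.60 without 2 strains. Without BXD87, BXD89 and BXD90 its r was -0.66 (permutation p = 0.00019, adjusted p = 0.0152). Aqp8 with smooth muscle markers had r = -0.54 (permutation p = 0.00213, adjusted p = 0.059), rho of -0.57 (p = 0.00112, adjusted p = 0.0448) and r of -0.51 without 2 strains, and without BXD87, BXD89 and BXD90 neither its r (-0.55, adjusted p = 0.104) nor its rho (-0.56, adjusted p = 0.116) passed. Scnn1a ran the other way with smooth muscle markers, with r = 0.52 (permutation p = 0.00295, adjusted p = 0.059), rho of 0.48 (p = 0.00824, adjusted p = 0.165) and r of 0.50 without 2 strains.

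The third comparison set the 2 strains labelled parental beside the 30 BXD strains. On strain means, Atp12a was higher and Car1 lower in the strains labelled parental, and the other 8 genes did not pass, where 0.713% of all genes were called (139 of 19503). The tests of level treat the strain means as those of 2 separate strains. HFD labelled C57BL/6J and CD labelled DBA/2J were alike at the strain-dependent genes (r 0.897). Each mean may thus mix strains, and the p-values are to be read with that limit. The 4 arrays were not alike. Atp12a was at 9.70 on HFD and 11.76 on CD in the pair labelled C57BL/6J, and at 5.01 on HFD and 11.05 on CD in the pair labelled DBA/2J. BXD arrays ran from 3.77 to 9.80 on HFD with a median of 5.24, and from 3.53 to 9.51 on CD with a median of 5.46. Both CD arrays labelled parental were thus above all 30 BXD arrays of that diet, while of the 2 HFD arrays 1 was high and 1 was near the BXD median. The strain means averaged 9.38 in the strains labelled parental and 5.56 ± 0.98 in BXD strains (SD, n = 30), a log2 difference of 3.82 (standard error 0.68, adjusted p = 0.00192 in limma).

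Car1 was at 18.55 on HFD and 19.88 on CD in the pair labelled C57BL/6J, and at 19.92 on HFD and 18.44 on CD in the pair labelled DBA/2J. In BXD arrays it ran from 18.76 to 19.93 on HFD and from 19.84 to 19.93 on CD. The 2 low arrays were those of opposite diet and label that matched each other at the 100 genes. The strain means averaged 19.20 in the strains labelled parental and 19.88 ± 0.11 in BXD strains, a measured log2 difference of -0.69 (standard error 0.11, adjusted p = 0.001 in limma). Most BXD arrays lay at the top of the scale, as did CD labelled C57BL/6J and HFD labelled DBA/2J. The true size of the difference is thus not known, and the BXD spread behind the p is held down by the same limit.

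Scnn1a was high in the same 2 arrays, at 13.08 in HFD labelled C57BL/6J and 13.19 in CD labelled DBA/2J, against 12.63 in the highest BXD array, and at 12.01 in CD labelled C57BL/6J and 11.09 in HFD labelled DBA/2J. Its strain means averaged 12.34 in the strains labelled parental and 11.07 ± 0.58 in BXD strains, a log2 difference of 1.27 (standard error 0.38, adjusted p = 0.13 in limma). In the exact permutation test over all choices of 2 of 32 strains, two-sided, p was 0.00202 for each of Atp12a, Car1 and Scnn1a, the smallest it can give, before any adjustment for the 10 genes. For the other 7 it was from 0.0685 (Slc9a3) to 0.998 (Cftr).

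Leaving out an array or a strain labelled parental changed these calls. Without the CD array labelled DBA/2J, the log2 difference was 2.31 for Atp12a (adjusted p = 0.138 in limma), -0.32 for Car1 (0.206) and 0.75 for Scnn1a (0.349), where 0.743% of all genes were called, against 0.713% with it. Without the strain labelled C57BL/6J, Atp12a was at 2.47 (adjusted p = 0.54) and Car1 at -0.70 (0.173), and without that labelled DBA/2J, Atp12a was at 5.18 (0.0121) and Car1 at -0.67 (0.103). Over all genes 0.0% and 0.0769% were called in these fits, in which 1 strain stands alone and is assumed to vary like the BXD strains. In CD arrays alone both passed, with 5.82 for Atp12a (adjusted p = 0.00114) and -0.76 for Car1 (0.0318), where 0.467% of all genes did. In HFD arrays alone the differences were 1.82 for Atp12a (0.558) and -0.61 for Car1 (0.361), and no gene was called (0.0% of 19503).

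The 3 arrays labelled parental with high Atp12a also had high Hoxb13, a homeobox gene whose expression marks the most distal colon and rectum. Hoxb13 was at 8.32 in HFD and 8.25 in CD labelled C57BL/6J, at 7.89 in CD labelled DBA/2J and at 3.62 in HFD labelled DBA/2J, against a BXD median of 4.62 (lowest 2.70, highest 9.21). Its difference was 2.22 (adjusted p = 0.0437 in limma), and 0.367 was the adjusted p without the CD array labelled DBA/2J. Tgm3 was at 14.62, 15.71 and 15.29 in the same 3 arrays and at 9.52 in HFD labelled DBA/2J, against a BXD median of 10.23. Among BXD arrays, Atp12a was highest in HFD of BXD40 (9.80), CD of BXD62 (9.51), CD of BXD67 (9.33), CD of BXD73 (8.84) and HFD of BXD34 (8.69), where Hoxb13 was at 9.21, 6.44, 7.49, 6.96 and 5.22. In each of these strains only 1 of the 2 arrays was that high. The mean of 8 posterior Hox genes was 6.47 in HFD and 6.69 in CD labelled C57BL/6J, and 6.21 in HFD and 6.18 in CD labelled DBA/2J, against a BXD median of 6.07 (lowest 5.60, highest 6.59). Single Hox genes did not all follow Hoxb13. Hoxa13 was at 6.91 in HFD and 6.75 in CD labelled C57BL/6J and at 7.09 in CD labelled DBA/2J, above its BXD median of 5.88. Hoxd10 was below its lowest BXD array (5.30) in HFD labelled C57BL/6J (5.07) and CD labelled DBA/2J (4.80), and at 7.44 in CD labelled C57BL/6J. The mean of 9 goblet cell markers was 17.89, 17.48 and 17.78 in the 3 arrays with high Atp12a and 16.04 in HFD labelled DBA/2J, against a BXD median of 16.65 (lowest 15.46, highest 18.15). The ileal bile acid transporter Slc10a2, on the list of small intestinal markers, was lower in the strains labelled parental (log2 difference -2.91, adjusted p = 0.000234), at 7.41 in HFD and 12.79 in CD labelled C57BL/6J and at 13.04 in HFD and 7.31 in CD labelled DBA/2J, against a BXD median of 13.16 (lowest 9.75). It was thus low in the 2 arrays with low Car1, and the adjusted p was 0.114 without the CD array labelled DBA/2J. The part of these markers in the result was not tested.

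**Figure D5:**
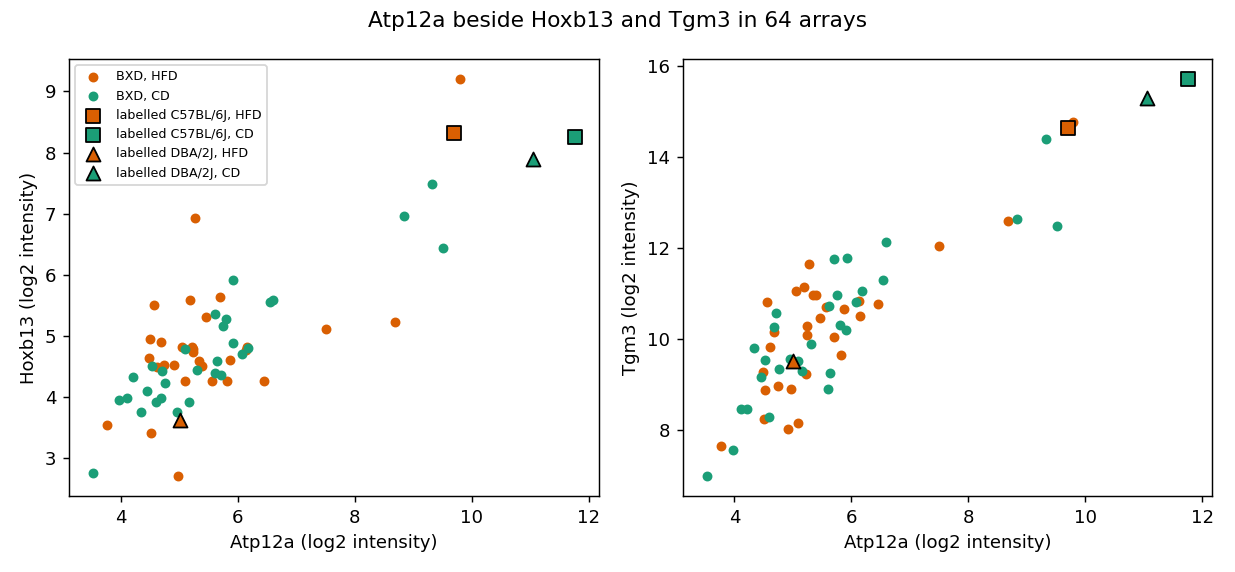
Log2 intensity of Atp12a (horizontal) against Hoxb13 (left) and Tgm3 (right) in each of the 64 arrays, coloured by diet, with the arrays labelled parental as squares and triangles. Both arrays labelled C57BL/6J and CD labelled DBA/2J lie at the upper right (Atp12a 9.70 to 11.76), and HFD labelled DBA/2J (5.01) lies among the BXD arrays.

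Of the 65 list genes, 4 passed on strain means: the calcium-gated chloride channel Ano1 was higher in the strains labelled parental (1.11, adjusted p = 0.0249 in limma), and the kinase Prkg2 (-1.22, 0.00826), the anhydrase Car12 (-0.98, 0.0352) and the water channel Aqp1 (-1.13, 0.0294) were lower. None of the 4 passed without the CD array labelled DBA/2J, where 145 of all genes did, against 139 with it.

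The change with diet itself was then compared between the strains labelled parental and the BXD strains. None of the 10 genes passed an adjusted p of 0.05 in limma, nor did any of the 19503 (0 called, 0.0%), and 917 had an unadjusted p under 0.05. HFD minus CD of Atp12a was -2.06 in the pair labelled C57BL/6J and -6.04 in that labelled DBA/2J, against a BXD median of 0.15 (lowest -5.74, highest 4.18), and the difference between the groups was -4.00 (standard error 1.24, adjusted p = 0.996; exact permutation p = 0.0121, two-sided). For 9 of the 10 genes the 2 pairs labelled parental differed between diets in opposite directions, Atp12a being the exception. HFD minus CD was -1.33 for Car1 in the pair labelled C57BL/6J and 1.47 in that labelled DBA/2J, and for Scnn1a it was 1.06 in the pair labelled C57BL/6J and -2.10 in that labelled DBA/2J. With HFD labelled C57BL/6J and CD labelled DBA/2J alike at the strain-dependent genes, a change with diet and a change of strain cannot be told apart in these pairs.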

How the data were processed

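RNA pooled from about 5 mice was measured on 64 Clariom S arrays, 1 per strain and diet. The deposited log2 intensity values were made by the authors with Affymetrix Power Tools (gc-sst-rma-sketch), and were used as given. Per the methods, probes over BXD polymorphisms were dropped and a transcript's probesets reduced to their median, and it is not given in the sources used here whether this was done before deposit. Of 22199 probesets, 19570 had 1 gene symbol, 0 had several and 2629 had none and were left out. Probesets of the same gene (55 genes) were reduced to their median, giving 19503 genes. Array medians were 6.58 to 6.77 on HFD and 6.54 to 6.74 on CD. One field of the CD labels gives a protein share that differs from the methods, whose value is used here. The number of arrays limits the precision.

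HFD minus CD was fitted with limma 3.58.1 (lmFit, eBayes) in R 4.3.3 on all arrays, with p-values adjusted by Benjamini-Hochberg over the 19503 genes and a threshold of 0.05. The CD and HFD arrays of 1 inbred strain label are a pair by the labels, and an alternative fit took strain as a replicate block. Deviations from the diet means correlated by over 0.1 in 22 of 32 pairs (median 0.206, against -0.00856 between strains). Strain effects used the 60 BXD arrays with diet in the model, and parental comparisons used strain means or differences of 32 strains, with exact permutation tests over all choices of 2 of the 32 strains. Correlations used permutation tests with 100000 resamples, adjusted over 45 or 80 relations. Arrays of a strain were matched at 100 genes, chosen on 27 strains and without the 10 genes. Upstream sequences came from RefSeq. On simulated data of the diet comparison (19503 genes), 84 of 100 genes changed by 0.5 were called, 100 of 100 changed by 1, and 12 of 19303 unchanged. Noise there was drawn independently for each array from the SD of each gene, without strain pairs. The changed genes were picked at random, so these rates are not those of the 10 genes.

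The named genes are the 10 genes, the list genes that passed in a comparison (at most 5 per list and comparison, otherwise the 1 with the smallest p) and the 3 genes most like each of the 10. The genes and lists (147 of 158 entries on the array) were chosen with earlier results of these data known. Lpo and Defa24 were named after their values had been seen. Alternatives were the block, other scalings, filters, probeset means, variance models, subsets of strains or arrays, and marker covariates. Tables and figures were made in Python 3.11.15 (numpy 2.4.6, pandas 2.3.3, matplotlib 3.10.9).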

Additional observations from a re-analysis of the deposited data

How the results depend on the processing

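The spread between strains, 1 array per strain and diet and the doubt about 5 strain labels limit these results, and the top of the scale limits Car1. Over all genes, 426 were called by diet alone, 687 with strain as a replicate block, 857 without the strains in doubt and 1358 with both. Of the 10 genes, 0 were called by diet alone, 1 with strain as a replicate block, 1 without the strains in doubt and 5 with both, the last chosen after seeing the data; of the list genes 4, 5, 7 and 14 were called. Strain effects, with 2 of the 10 called, came to 0 under a variance trend with robust moderation, with all 32 labels and without the strains rich in Defa24. The parental level, with 2 called, came to 1 in the upper 60% of genes by mean (which leaves out Atp12a), 0 in HFD arrays only and 0 without the CD array labelled DBA/2J, and to between 0 and 1 when 1 parental strain was left out. Over all genes, 139 were called for the parental level and 0 and 15 without 1 parental strain. The parental change with diet, with 0 called, came to between 0 and 1 (Car1, 1.54, adjusted p = 0.0125 in limma, without the strain labelled C57BL/6J); over all genes it was 0, and 53 and 5 without 1 parental strain. Correlated pairs by r, 1 of 45, came to 2 in CD arrays, 0 in HFD arrays and 0 without the strains rich in Defa24, where r of Slc26a3 with Cftr was 0.57, as with them. The 2 in CD arrays were Slc26a3 with Aqp8, and Car1 with Car4 (r 0.56, permutation p = 0.00093, adjusted p = 0.0209). For Car1 with Car4, r was 0.42 without 2 strains, and Car1 lay at the top of the scale in most arrays. The cause was not tested in any of these. Values that changed sign were uncalled with either sign; the called 1.54 of Car1 had the sign of its value with both strains, 0.14. The diet difference of Slc9a3 was 0.0052 by diet alone, -0.0063 with arrays centred, -0.029 in BXD strains only, -0.0018 without BXD48a, -0.00057 without the strains in doubt, with or without the block, -0.012 with the epithelial and -0.045 with the smooth muscle covariate. That of Cftr was -0.0051 with arrays centred and -0.0044 without BXD48a, and that of Slc12a2 -0.0030 with the smooth muscle covariate. The parental level of Cftr was -0.037 with arrays centred, -0.018 without the BXD strains rich in Defa24 or in doubt and -0.027 in CD arrays. That of Car4 was -0.066 in HFD arrays and -0.57 without the CD array labelled DBA/2J, and that of Slc12a2 0.046 in the last. When 1 parental strain was left out, the parental level ran from -0.30 to 0.031 for Slc12a2, from -0.21 to 0.87 for Car4 and from -0.10 to 0.10 for Cftr. The parental change with diet then ran from -1.32 to 0.56 for Slc26a3, from -0.057 to 1.16 for Slc9a3, from -0.31 to 0.72 for Slc12a2, from -1.73 to 1.44 for Scnn1a, from -1.26 to 1.54 for Car1, from -0.14 to 0.25 for Car2, from -2.89 to 1.29 for Car4, from -0.11 to 0.22 for Cftr and from -0.93 to 1.47 for Aqp8.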

Other observations

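Among the markers of cell types and regions, 2 passed by diet alone over the 32 strains in limma. Spdef, a transcription factor that directs goblet cells to mature, averaged 11.39 ± 0.87 on HFD and 12.31 ± 0.62 on CD (SD, n = 32 each) and fell by 0.91 (standard error 0.18, adjusted p = 0.00128), with 26 of 32 strains lower on HFD (-1.18, adjusted p = 2.21e-06 without the strains in doubt); it was the only 1 of the 9 goblet markers that passed. Fabp6, the ileal bile acid binding protein, averaged 9.62 ± 2.76 on HFD and 7.29 ± 1.62 on CD and rose by 2.32 (standard error 0.53, adjusted p = 0.00641), with 28 of 32 strains higher on HFD (2.64, adjusted p = 0.00235 without the strains in doubt). It was the only 1 of 12 small intestinal markers that passed by diet alone over the 32 strains. None of the 13 epithelial, 10 smooth muscle, 7 immune, 6 enteric nervous, 8 posterior Hox and 7 anterior Hox markers on the array passed by diet alone over the 32 strains. Other fits called more. Without the strains in doubt the epithelial marker Cldn3 fell by 0.36 (adjusted p = 0.0146 in limma), while Ptprc rose by 0.53 (0.0318) and Enpep by 1.14 (0.0356). With strain as a replicate block, Cldn3 (-0.28, adjusted p = 0.0418 in limma) and the small intestinal marker Alpi (0.46, 0.0376) were among those that passed.

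Between BXD strains, the goblet cell products Retnlb (adjusted p = 2.8e-05), Fcgbp (0.00096), Agr2 (0.00345), Ang4 (0.0147) and Spink4 (0.0319) differed in limma, as did the antibody joining chain Jchain (0.000385), the macrophage gene Adgre1 (0.0362), the smooth muscle gene Synpo2 (0.00878), the alkaline phosphatase Alpi (0.0288) and the homeobox gene Hoxb7 (0.0332). In this fit 6.22% of all genes were called. At most 5 genes are named per list, so more of the 9 goblet markers may have passed. In the strains labelled parental, the B cell gene Cd79a was higher (1.31, adjusted p = 0.00753), and Hoxb6 (-1.69, 0.00674), Hoxb7 (-1.09, 0.0199) and the intestinal transcription factor Cdx2 (-0.93, 0.0111) were lower. Without the CD array labelled DBA/2J, the adjusted p was 0.142 for Hoxb6, 0.0756 for Hoxb7 and 0.0789 for Cdx2.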
